A study of Ovis aries with 17 samples.

Results

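CD3D, CD3E, CD28 and GNLY are 4 genes of T lymphocytes and natural killer (NK) cells. They are described here across sheep B cells, macrophages and dendritic cells (DC), among 15060 probes of a custom ovine array. Each was found by its RefSeq transcript accession, and each is named by 1 such probe. The genes were chosen by their names and by measured values, namely their log2 levels and detection flags on the same 17 arrays. The levels of these 4 genes are therefore given as a description, with no test.

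The CD3 delta and epsilon chains, encoded by CD3D and CD3E, pair with each other and form, with CD3 gamma and the zeta chain CD247, the signalling part of the T cell receptor. CD28 is the costimulatory receptor through which T cells read CD80 and CD86 on antigen-presenting cells. Granulysin, encoded by GNLY, is an antimicrobial and cytolytic protein stored in the granules of cytotoxic T cells and NK cells. B cells, macrophages and DC are not classical sources of any of these transcripts, although some lymphoid transcripts, such as the pre-T cell receptor alpha chain, are known in plasmacytoid DC (pDC), the DC specialised in producing type I interferon.

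The study set out to match mononuclear cell subsets of sheep to those of other species, and hybridised RNA of sheep of the Prealpe breed to 17 one-colour arrays. No treatment is named for the sorted subsets, MoDC alone were cultured with a cytokine, and the ages of the animals were not given in the sources used here. B lymphocytes (B, 4 arrays) were sorted from spleen with an antibody to ruminant B cells, and macrophages (MP, 3 arrays) from spleen by CD14. pDC (3 arrays) were low density blood cells with high forward scatter, sorted as B- CD11b- TCR1- CD8- CD11c- CD45RB+. XCR1- DC (cDC2, 3 arrays) and XCR1+ DC (cDC1, 1 array) were blood cells of several sheep, gated as B- CD11b- TCR1- CD45RB- CD11c+ and separated by CADM1 and CD172. MoDC (3 arrays) came from separate cultures with GM-CSF, and the file names and the text of the study point to bone marrow as their source. TCR1 is the gamma delta T cell receptor, and no antibody to CD3 or to an NK cell marker was listed for these sheep sorts. RNA of several animals was mixed where 1 sort gave too little. The sources used here do not say on which arrays, although file names mark the cDC1 array and cDC2 replicate 2 as pools. Replicates therefore need not be single animals. In such bulk RNA, fewer cells of a type and less RNA per cell cannot be told apart.

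All levels are log2 of the background-corrected spot intensity minus the 75th percentile of that array, so that 0 is a signal equal to this percentile. The 75th percentile itself lay between 194 and 688 intensity units. The defining B cell marker with a probe under its symbol, CR2, was at 4.20 to 4.25 on the B arrays, and its highest level on any other array was -0.53. The mean of the 4 measured monocyte and macrophage markers was 2.47 to 3.07 in MP and at most 1.37 on other arrays. For pDC, 3 of 12 listed markers had a probe under their symbol, and their mean was -0.15 to 1.15 in pDC. That range overlapped the cDC2 range of -0.47 to -0.05 and the cDC1 value of -0.10.

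The probes of CD3D, CD3E and GNLY are shown because each gene's level rests on 1 short stretch of its transcript. The GNLY probe is printed whole, and of the CD3D and CD3E probes the first 30 of 60 bases are printed. They are the array's own sequences, 5′ to 3′.
CD3D: tctttagtacccatttccctgtatagaagg
CD3E: gatggtcatttgtagctccatgaatgtgct
GNLY: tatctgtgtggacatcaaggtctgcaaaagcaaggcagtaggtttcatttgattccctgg
Among all 15060 probes, no other probe shared a run of 20 bases with the CD3D, CD3E or CD28 probe on either strand. The GNLY sequence occurs a second time on the array, under an identifier without a symbol, EE784427.p.ov.6, and there all 60 bases are the same. These 2 spots gave GNLY levels that differed by a median of 0.028 and by at most 0.15 log2 units over the 17 arrays. In the RefSeq gene table, CD3E and CD3D are neighbours on the same chromosome.

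CD3D, the delta chain, was highest in pDC and B cells. On the pDC arrays its levels were 3.70, 2.94 and 3.02, and on the B arrays 1.93, 2.37, 2.72 and 2.00. The lowest pDC array lay just above the highest B array, so that these groups did not overlap but nearly touched. In cDC2 the levels were -0.92, -0.81 and -0.28, in MP -2.23, -3.22 and -0.92, and on the single cDC1 array -1.39. The MP range took in the cDC1 value, and its upper end touched the cDC2 range. In MoDC none of the 3 arrays had the probe well above background, and the measured values were -7.10, -7.36 and -7.78. The CD3D probe was well above background on 14 of 17 arrays, which were all arrays outside MoDC.

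The mean CD3D level was 3.22 ± 0.42 (SD, n = 3) in pDC and 2.26 ± 0.37 (n = 4) in B, a difference of 0.96 log2 units or 1.95-fold. It was -0.67 ± 0.34 (n = 3) in cDC2 and -2.13 ± 1.15 (n = 3) in MP. pDC were thus 14.8-fold above cDC2 and 40.7-fold above MP. Against MoDC only a bound can be given, computed from the lowest level that was well above background on each MoDC array. By this nominal bound CD3D was 488-fold higher in pDC and 250-fold higher in B than in MoDC. That lowest level is not a strict detection limit, since a probe not well above background can lie above it. On pDC replicate 1, for example, IFNG was not well above background at -4.69, and the lowest level that was lay at -5.00. These bounds were computed for the values used here only. The nominal gap between the pDC and MoDC means is set by values at background and is not a measured difference. It was 10.63 log2 units in the values used here, 10.39 with quantile normalization, 6.20 with the normexp correction and 7.38 in the authors' processed table, and the last pair of values are smaller than the bound for pDC on the log2 scale, 8.93. The pDC excess over MP was 61.8-fold without MP replicate 3 and 20.6-fold with normexp.

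CD3E, the epsilon chain, was well above background on all 17 arrays. Its pDC levels were 4.64, 3.12 and 4.74, and replicate 2 was the low one. All of them lay above the remaining subsets. The cDC2 levels were 1.19, 1.66 and 1.85, and the B levels 1.50, 1.03, 1.38 and 1.55, so that cDC2 and B did not differ beyond their spread. MP gave 0.00, -0.71 and 0.92, and cDC1 0.75, a value inside the MP range. MoDC were lowest, at -3.96, -3.36 and -2.53.

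The CD3E mean was 4.17 ± 0.91 (SD, n = 3) in pDC, which was 6.05-fold above cDC2 at 1.57 ± 0.34 (n = 3) and 6.96-fold above B at 1.37 ± 0.23 (n = 4). MP had a mean of 0.07 ± 0.82 (n = 3), and pDC exceeded it 17.1-fold. MoDC, at -3.28 ± 0.72 (n = 3), were 175-fold below pDC, or 72.7-fold with normexp and 95.3-fold in the authors' values. Both CD3 chains therefore had their highest mean in pDC and their lowest in MoDC. They differed in where B cells stood. For CD3D the B mean exceeded the cDC2 mean by 2.93 log2 units, and for CD3E the B mean was 0.20 below it.

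**Figure D1:**
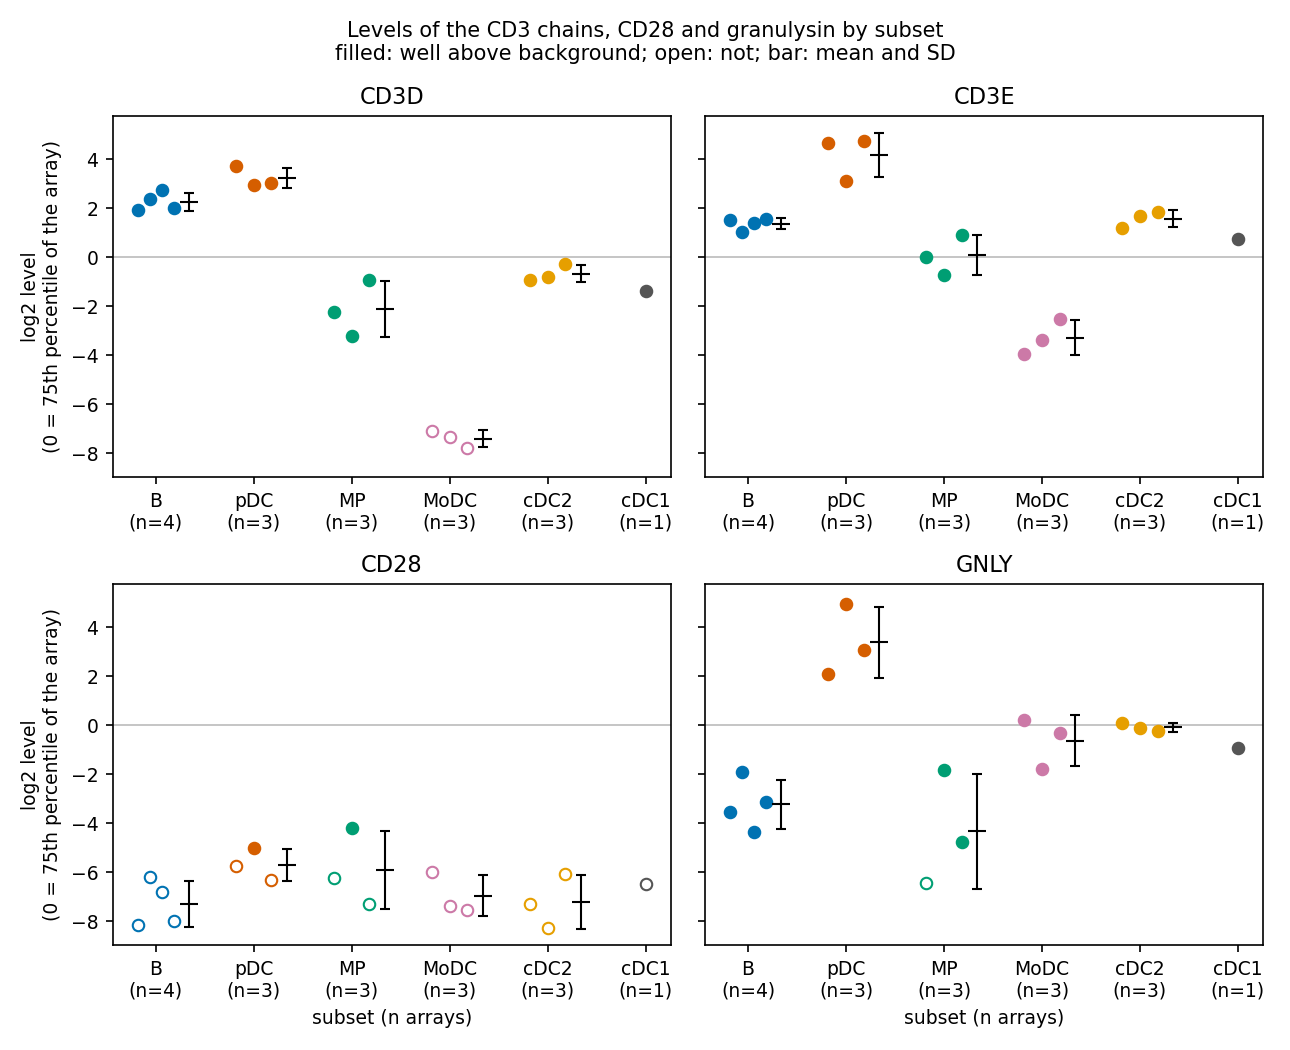
Log2 level of CD3D, CD3E, CD28 and GNLY (y axis, 0 is the 75th percentile of the array) in each subset (x axis, n arrays). Each point is 1 array, filled where the probe was well above background and open where it was not, and the bar to the right is the mean with its SD. For CD3D, CD3E and GNLY the 3 pDC points lie above the points of the other 14 arrays, while CD28 has 2 filled points in all.

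CD28 was near the detection limit throughout. The probe was well above background on 2 of 17 arrays, pDC replicate 2 at -5.02 and MP replicate 2 at -4.19, and not on the rest. The other pDC arrays were at -5.74 and -6.33, and the other MP arrays at -6.24 and -7.30. No subset had CD28 above background on every array, so the gene did not pass the filter on dim probes.

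The B arrays gave -8.14, -6.20, -6.81 and -7.98, the MoDC arrays -5.99, -7.36 and -7.53, the cDC2 arrays -7.30, -8.27 and -6.08, and the cDC1 array -6.48. None of these values has an order, since all are at background. The corrected CD28 signal lay between 1.57 and 12 intensity units on all arrays. Across the 17 arrays its level fell with the array's 75th percentile (Pearson r = -0.77, a description with no test), whereas for CD3D, CD3E and GNLY this r lay between -0.18 and -0.13. The ordering of CD28 means is accordingly not interpreted, and it changed with the scaling. pDC had the highest mean in the values used here, cDC1 with the normexp correction and MP in the authors' table.

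GNLY was highest in pDC, at 2.11, 4.97 and 3.08, and here replicate 2 was the high one. The next levels were those of cDC2, at 0.10, -0.10 and -0.25, and of MoDC, at 0.23, -1.78 and -0.31. These ranges overlapped, and the cDC1 value of -0.95 lay within the MoDC range. B cells gave -3.52, -1.92, -4.36 and -3.12. MP were the most variable, at -6.43, -1.82 and -4.75, with the first of these not well above background. The B and MP ranges overlapped.

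The GNLY mean was 3.39 ± 1.45 (SD, n = 3) in pDC, 11.1-fold above cDC2 at -0.08 ± 0.18 (n = 3) and 16.1-fold above MoDC at -0.62 ± 1.04 (n = 3). pDC exceeded B, at -3.23 ± 1.01 (n = 4), by 98.0-fold. MP had a mean of -4.33 ± 2.33 (n = 3), which was 211-fold below pDC in the fitted means and includes 1 array at background. That fold was 102 without MP replicate 1, 504 without MP replicate 2, 329 without pDC replicate 1, 122 without pDC replicate 2 and 47.7 with normexp, so its size is known only within this range. Without pDC replicate 2 the pDC mean of GNLY was 2.60, and that of CD3E was 4.69. The GNLY folds over B, MoDC and cDC2 were then 56.7, 9.29 and 6.39, and without pDC replicate 1 they were 153, 25.1 and 17.2. With normexp the fold over B was 43.9. GNLY thus placed MoDC above B and MP, unlike the CD3 chains, for which MoDC were the lowest subset.

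For all 3 members that passed the filter, each pDC array lay above each of the other 14 arrays. Of the 11311 genes that passed, 371 or 3.28% had this property. Since the members were chosen with these levels known, nothing is read from that count. It held for CD3D, CD3E and GNLY under every other scaling tried, which were quantile normalization, normexp and the authors' table.

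The slides on which the arrays were printed allowed comparisons within a slide, because slides 1, 2 and 3 each carried 1 array of B, pDC, MP and MoDC. For CD3D, pDC exceeded B on the same slide by 1.77, 0.57 and 0.29 log2 units, and MP by 5.94, 6.16 and 3.94. No such difference is given against MoDC, where CD3D was at background on each slide. For CD3E the pDC excess over B was 3.14, 2.08 and 3.36, and over MP 4.64, 3.83 and 3.82. The pDC array was the higher one on 3 of 3 slides in each of these contrasts. For GNLY the excess over B was 5.63, 6.89 and 7.44, whereas that over MoDC varied from 1.88 on slide 1 to 6.75 on slide 2. The fourth slide carried B replicate 4 with the cDC2 and cDC1 arrays, and no pDC array. There cDC2 exceeded B replicate 4 by 0.02 for CD3E and by 3.04 for GNLY, and it was lower for CD3D, with a difference of -2.67.

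**Figure D2:**
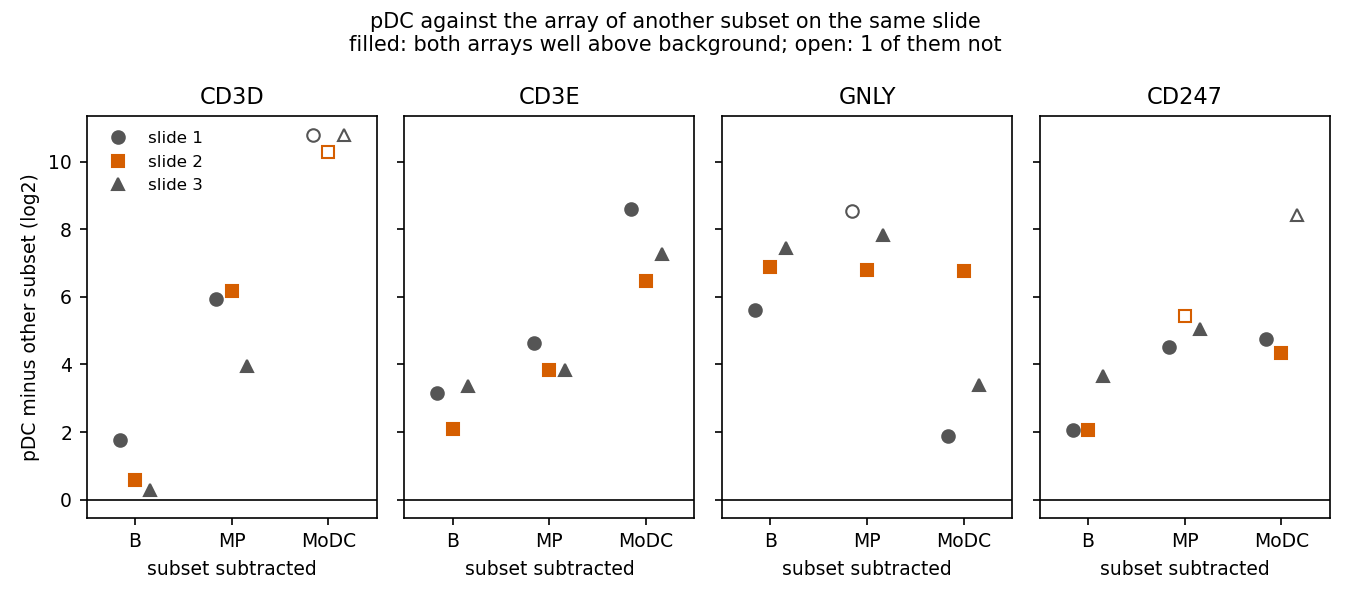
Difference in log2 level between the pDC array and the B, MP or MoDC array of the same slide (y axis) for CD3D, CD3E, GNLY and CD247, with 1 symbol per slide. A filled symbol has the probe well above background on both arrays, and an open one rests on 1 array at background and gives no measured size. All points lie above 0, and the CD3D differences from B, at 0.29 to 1.77, lie closest to it.

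CD3D and CD3E varied together over the arrays, with a Pearson r of 0.92 over 17 arrays. GNLY followed them less, at 0.16 with CD3D and 0.35 with CD3E. These values describe arrays that share subsets, slides and scaling, and carry no test. Each r with CD3D, here and below, includes the 3 MoDC arrays and so rests in part on CD3D values at background. The plot of the pairs shows B cells off the line of the other subsets, since they had CD3D near the pDC level and CD3E near the cDC2 level.

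**Figure D3:**
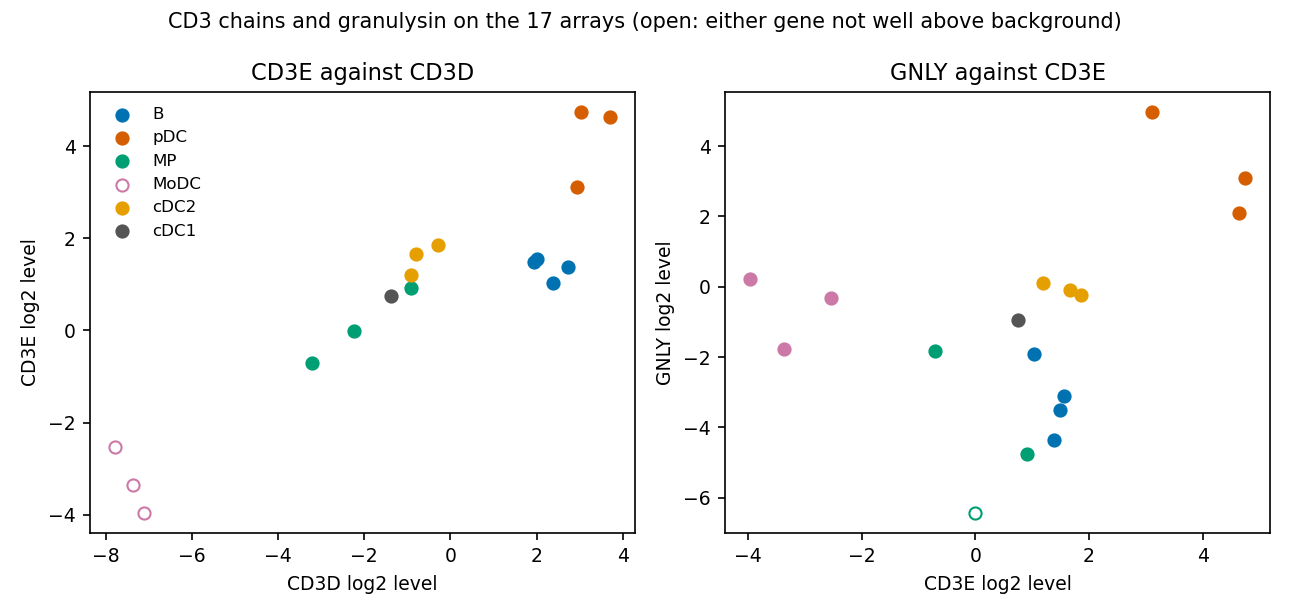
Log2 levels on the 17 arrays of CD3E against CD3D (left) and of GNLY against CD3E (right). Each point is 1 array, coloured by subset, and open where either gene was not well above background. On the left the points rise together (r = 0.92, with the MoDC arrays at background included), and on the right MoDC combine the lowest CD3E with mid-range GNLY (r = 0.35).

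Of the 11311 genes that passed the filter, 276 had a symbol. Among those 276, the levels most like those of CD3D were those of SERPINC1 (r = 0.95), CD3E (0.92) and SLPI (0.87), over 17 arrays. Over all genes that passed, these ranked 19, 79 and 213 in likeness to CD3D. SERPINC1 encodes antithrombin and SLPI an inhibitor of serine proteases of leukocytes. For CD3E the symbols most like it were SLPI (0.95), SERPINC1 (0.93) and CD3D (0.92), at ranks 7, 16 and 23 over all genes. SLPI had means of -1.18 in pDC, -2.76 in cDC2 and -3.92 in B, and was not above background in MoDC. For GNLY they were HSD11B1 (0.72), which regenerates active glucocorticoid, XCL1 (0.67) and CCR9 (0.66), a chemokine receptor of gut-homing lymphocytes and of pDC. Over all genes these ranked 48, 111 and 127. CCR9 had a mean of -1.26 in pDC and was above background on 2 of the 14 other arrays. HSD11B1 was above background on 1 of 4 B and 2 of 3 cDC2 arrays, and on no MP or cDC1 array. The likenesses of HSD11B1 and CCR9 to GNLY thus rest in part on values at background.

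Probes without a symbol were closer still. The highest r with CD3D was 0.99, for X52994.p.ov.6, and 0.98, for AF172684.p.ov.6. With CD3E it was 0.98 for both FE024726.p.ov.6 and EE777955.p.ov.6. With GNLY, the probe of the same sequence described above came first at 1.00, and EE808096.p.ov.6 followed at 0.89. For CD28 the highest r was 0.80, for AF030011.p.ov.6, then 0.73, for EE869689.p.ov.6. The symbols most like CD28 were CCR9 and CPT1A (both 0.47) and BAMBI (0.45), and these likenesses rest on values at background.

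To place the members among their partners, a list of 108 other T and NK genes was examined. Of these, 15 had a probe under their symbol, and 8 passed the filter on dim probes. These were compared between the 5 replicated subsets with limma across all 11311 genes, calling a gene at an adjusted p under 0.05 and at least 2-fold. Of the 8, 7 were called in at least 1 of 10 pairs, against 65.1% of all genes tested, and CD80, the ligand of CD28 and CTLA4, in none. The T cell receptor part of the list had 1 of 23 genes with such a probe, CD247, and the cytotoxic granule and NK part 1 of 22, XCL1. As 453 of the 15060 probes carry a symbol, further list genes may lie among the unnamed probes. The counts below therefore describe few genes.

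CD247, the zeta chain of the T cell receptor, was the one list gene of 8 with each pDC array above each of the other 14. Its mean was 1.11 ± 0.39 (SD, n = 3) in pDC, -0.86 ± 0.12 (n = 3) in cDC2, -1.50 ± 0.59 (n = 4) in B, -3.90 ± 0.78 (n = 3) in MP and -4.73 ± 1.99 (n = 3) in MoDC. It was called in 7 pairs, and pDC against cDC2 was not among them (3.90-fold, limma adjusted p = 0.0692). pDC exceeded MoDC 57.1-fold (log2 difference 5.84, SE 0.73, limma adjusted p = 1.95e-05), and B exceeded MoDC 9.38-fold (adjusted p = 0.00152). Both folds lean on MoDC replicate 3, which was at background. Without it they were 25.8 and 4.24, without MoDC replicate 1 they were 87.4 and 14.4, with normexp 13.4 and 2.90, and in the authors' values 18.1 and 3.38, and each of these remained called. pDC exceeded B 6.08-fold (adjusted p = 0.0248), a call that was lost without B replicate 3 or 4 or without pDC replicate 1 or 3, at adjusted p values of 0.0538 to 0.0910. On slides 1, 2 and 3 the pDC array exceeded the B array by 2.07, 2.05 and 3.66 log2 units. The calls of CD247 between B and MP and between MP and cDC2 were lost without MP replicate 2, at adjusted p values of 0.0869 and 0.0717, and the second also without cDC2 replicate 3, at 0.0579. On MP replicate 2 too the probe was not above background. The 6 subsets stood in the same order of means for CD247 as for CD3E, although some neighbours in it were not apart. For CD3E the cDC2 and B ranges overlapped. For CD247 neither B and cDC2 nor MP and MoDC were called (limma adjusted p = 0.540 and 0.431), and cDC1 was 1 array. Over the 17 arrays the r of CD247 was 0.84 with CD3E, 0.81 with CD3D and 0.50 with GNLY.

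XCL1, a chemokine of activated T and NK cells and the ligand of XCR1, was higher in pDC than in B (7.11-fold, limma adjusted p = 0.00948), MP (12.9-fold, adjusted p = 0.000728) and cDC2 (12.6-fold, adjusted p = 0.00125). Its pDC mean was 1.13 ± 1.33 (SD, n = 3) and its MoDC mean -0.20 ± 1.47 (n = 3), and this pair was not called. On the slides that carried both, the pDC array exceeded the MoDC array by 0.50 and 4.33 log2 units and was lower on slide 3, with a difference of -0.83. As with GNLY, pDC replicate 2 was the high array, at 2.66. Without it XCL1 stayed called against B, MP and cDC2, at 4.18-fold, 7.59-fold and 7.41-fold. With normexp the folds over MP and cDC2 were 6.49 and 7.89. XCL1 was also higher in MoDC than in MP (5.13-fold, limma adjusted p = 0.0171) and cDC2 (5.01-fold, adjusted p = 0.0152). Without MoDC replicate 2 these folds were 8.51 and 8.31, and without MoDC replicate 3 they were 3.08 and 3.01. With normexp the first was 2.82-fold, and in the authors' values 3.23-fold. The calls were lost without MoDC replicate 3, at adjusted p values of 0.0629 and 0.0573, and the first also without MP replicate 2, at 0.0651, and with normexp, at 0.0617. With slide as a fixed block in limma both XCL1 calls against cDC2 were lost, at adjusted p values of 0.118 for pDC and 0.203 for MoDC.

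**Figure D4:**
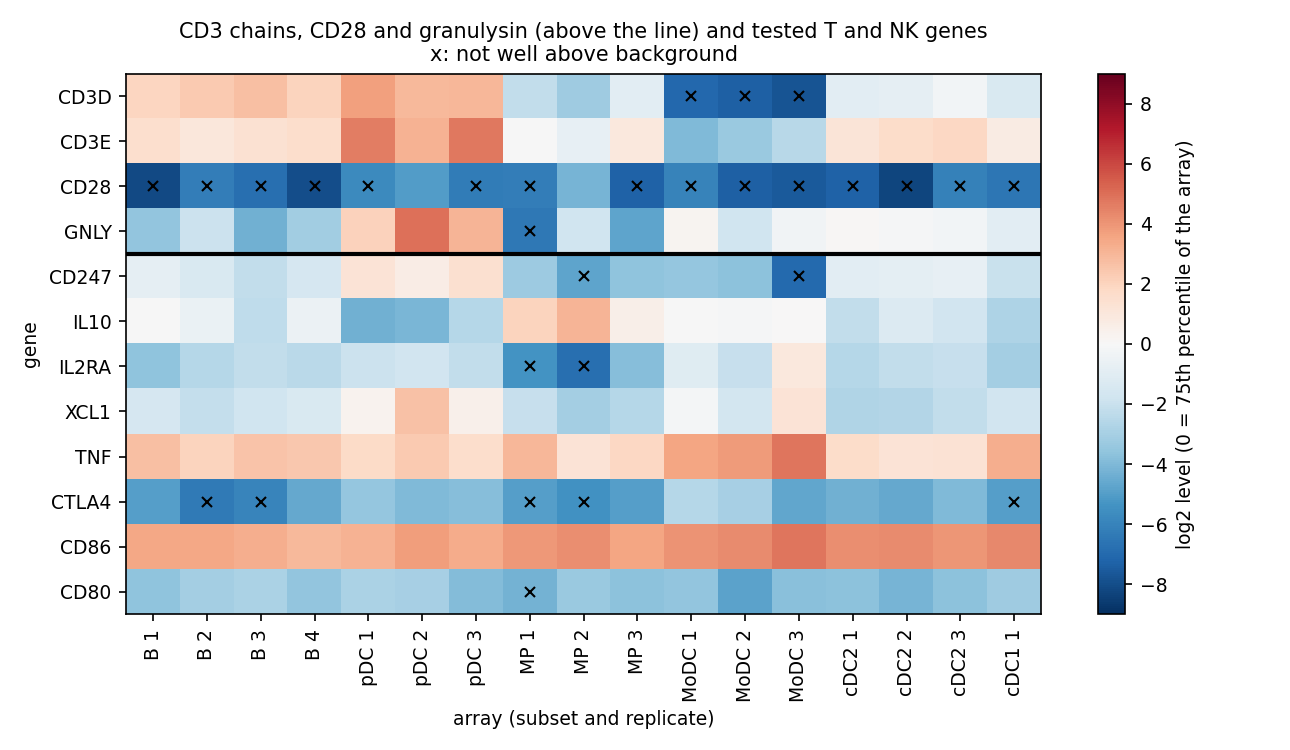
Log2 level (colour, white is the 75th percentile of the array) of the CD3 chains, CD28 and GNLY above the line and of the 8 tested T and NK genes below it, on the 17 arrays. A cross marks a probe not well above background. CD247 is highest on the pDC arrays, as are CD3D, CD3E and GNLY, whereas IL10 is low there and TNF and CD86 are well above background on every array.

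The remaining genes of the list did not share this pattern. IL10, an inhibitory cytokine, was called in 7 pairs and was lower in pDC than in every other replicated subset, by 7.01-fold against B (limma adjusted p = 0.00836) and 45.9-fold against MP (adjusted p = 1.85e-05). The fold against MP was 30.6 without MP replicate 2, 72.1 without MP replicate 3, 13.3 with normexp and 21.8 in the authors' values. Against cDC2 its difference was 3.80-fold (adjusted p = 0.0485), a call lost under 17 of 25 alternatives, with folds of 1.67 with normexp and 2.17 in the authors' values. Against B the call was lost with the normexp correction (2.76-fold, adjusted p = 0.0537) and without pDC replicate 1 (0.0524), and the fold was 4.14 in the authors' values. IL10 was also higher in MP than in MoDC (3.73-fold, limma adjusted p = 0.0423), a call lost under 13 of 25 alternatives. That fold was 2.48 without MP replicate 2 and 5.86 without MP replicate 3. TNF was called in 4 pairs, each of them higher in MoDC, by 3.11-fold against B to 6.39-fold against cDC2 (adjusted p = 0.00533 and 0.000376). The call against cDC2 was lost with slide as a fixed block in limma, at a log2 difference of 2.68 and an adjusted p of 0.0624. TNF had a second probe, which was dimmer by mean level (-4.50 against 2.41) and correlated at 0.46 with the one used.

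IL2RA, the high-affinity interleukin-2 receptor chain, was called in 5 pairs. It was lower in MP than in all other replicated subsets, by up to 24.7-fold against MoDC (limma adjusted p = 0.000355). That fold was 13.7 without MoDC replicate 3, 39.3 without MoDC replicate 2, 14.9 without MP replicate 2, 41.3 without MP replicate 3, 8.33 in the authors' values and 3.75 with normexp, and it remained called in each. With normexp its calls in MP against B, pDC and cDC2 were lost, at adjusted p values of 0.475, 0.159 and 0.442, and in MP it was above background on 1 of 3 arrays. Without MP replicate 2 its calls against B and cDC2 were also lost, at 0.0661 and 0.0737, and that against cDC2 without cDC2 replicate 2 or 3, at 0.0530 and 0.0599. Between B and MoDC it was 4.00-fold higher in MoDC (adjusted p = 0.0297), a call lost without B replicate 1 (0.0801) or MoDC replicate 3 (0.151). That fold was 2.23 without MoDC replicate 3, 6.36 without MoDC replicate 2, 2.61 in the authors' values and 2.51 with normexp. CTLA4, the inhibitory counterpart of CD28, had its highest mean in MoDC, at -3.39, followed by pDC at -3.76. It was called in 3 pairs and was higher in MoDC than in B (4.25-fold, limma adjusted p = 0.00324) and MP (3.29-fold, adjusted p = 0.0236), and higher in pDC than in B (3.29-fold, adjusted p = 0.0384). It was above background on 2 of 4 B arrays and 1 of 3 MP arrays. Without MoDC replicate 3 its folds over B and MP were 6.59 and 5.09. With normexp they were 1.39 and 1.15 and both calls were lost, at adjusted p values of 0.269 and 0.670, and that against MP was also lost without MP replicate 2 or 3 or MoDC replicate 1 or 2. The call between pDC and B was lost under 12 of 25 alternatives, with a fold of 1.39 and an adjusted p of 0.532 with the normexp correction and a fold of 1.93 in the authors' values. CD86, the second ligand of CD28, was higher in MoDC than in B (2.17-fold, adjusted p = 0.00439) and pDC (2.01-fold, adjusted p = 0.0145). Both differences fell under 2-fold with quantile normalization and in the authors' processed values, and so did the first with the replicate number or the slide as a fixed block. Without MoDC replicate 3 neither was called, and the first was also lost without B replicate 4 and the second without pDC replicate 1 or 3.

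Read by pair, 4 of the 8 list genes were called between B and pDC, against 9.22% of all genes tested. CD247, CTLA4 and XCL1 were higher in pDC, and IL10 in B. Without B replicate 3 or pDC replicate 3 the count was 2, without pDC replicate 1 it was 1, and with normexp it was 2. Between pDC and MP 4 were called, against 25.9% of all, with CD247, XCL1 and IL2RA higher in pDC. Between pDC and MoDC 4 were called, against 33% of all, and CD247 alone of them was higher in pDC. Between pDC and cDC2 the 2 calls, against 20.2% of all, were XCL1, higher in pDC, and IL10, higher in cDC2. That count was 1 without B replicate 2 or 4, pDC replicate 1 or 2, MP replicate 1, MoDC replicate 1 or 2, or any 1 cDC2 array, and 0 with slide as a fixed block. The median difference of the list was 0.93 between pDC and MP, against 0.06 over all genes tested, and -0.69 between pDC and MoDC, against 0.27.

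Of the pairs without pDC, B and MP had 3 calls (24.3% of all genes), B and MoDC 5 (36.1%), MP and MoDC 5 (25.9%), MP and cDC2 3 (11.2%), and MoDC and cDC2 3 (33.4%). Without MP replicate 2 the B and MP, MP and MoDC, and MP and cDC2 counts were 1, 2 and 1. Without cDC2 replicate 3 the last of these was 1, without any 1 of the 3 MoDC arrays the MP and MoDC count was 3, and without MoDC replicate 3 the B and MoDC count was 3. With quantile normalization the MoDC and cDC2 count was 5, and in the authors' values it was 6. CD247 was higher in B than in MP and MoDC, and higher in cDC2 than in MP and MoDC. Between B and cDC2 none of the 8 was called, against 23.1% of all, and 3 had an unadjusted limma p under 0.05, namely CD86, CTLA4 and TNF. The share of all genes with such a p was not counted for this pair, so nothing is read from these 3. With quantile normalization or the processed values of the authors, 1 gene was called there, and without MoDC replicate 3 the count was 2. The cDC2 arrays and those of pDC, MP and MoDC were on different slides. With slide as a fixed block, which links them through B replicate 4 alone, no list gene was called in any pair with cDC2, and the adjusted p of XCL1 between pDC and cDC2 was 0.118. The log2 difference of XCL1 in that pair was then 4.12, against 3.66 without the block, and that of IL10 was -1.53, against -1.93.

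Markers of the cells that classically carry these transcripts were few among the probes with a symbol, and others may be on the array unnamed. Of 22 T cell markers listed besides the members, CD247, CTLA4, CD40LG and IL2RA had a probe. Their mean level was -3.01 to -2.53 in pDC, -3.54 to -3.10 in cDC2, -4.11 in cDC1, -4.43 to -3.58 in B, -4.57 to -3.54 in MoDC and -5.93 to -4.94 in MP. CD40LG, expressed on activated helper T cells, was above background on 1 of 17 arrays, a cDC2 array, and on no pDC array. Of 14 NK and cytotoxic markers, IFNG alone had a probe, and it was above background on 2 of 3 pDC arrays and on none of the other 14. CTLA4 and IL2RA had their highest means in MoDC, IL2RA at -0.72 against -1.97 in pDC, and MoDC were lowest in CD3D and CD3E. Of the 5 markers measured, CD247 and IFNG were thus highest in pDC, and the rest were not. XCL1, from the NK part of the gene list, was not among these markers. Its mean too was highest in pDC, at 1.13 against -0.20 in MoDC, a pair not called. The markers moved with CD3D, CD3E and GNLY in part, and their part in the levels was not tested.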

How the data were processed

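The deposited values are spot intensities of 17 one-colour Agilent arrays, which the authors extracted with Feature Extraction 10.7.3.1 (12 arrays) or 10.10.1.1 (5 arrays). Their processed signal is already background-corrected. The deposited series table holds log2 values, which the authors normalized in a way not given in the sources used here. Its columns were matched to the arrays by their names. Its row order was inferred as alphabetical by probe name. In that order its values correlated with those of the arrays at r = 0.97 to 0.99, against -0.01 to 0.01 in spot order. The series table served as an alternative.

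Log2 of the processed intensity was taken and the 75th percentile of the array subtracted. Of 15208 gene spots, those flagged as outliers were left out (273 over all arrays), and the spots of a probe were averaged. To pass, a probe needed over 50% of its spots flagged well above background on each array of 1 or more subsets. Of 15060 probes 11549 passed, giving 11311 genes with the brightest probe for each. Symbols came from accessions in the RefSeq table (ARS-UI_Ramb_v3.0) for 313 probes and from the array files for 140. The files give no counting depth, and the number of arrays limits the precision.

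Subset means were fitted to all 17 arrays with limma 3.58.1 (R 4.3.3, with the data.table package), and the 10 pairs of the 5 replicated subsets were compared two-sided. A call needed a Benjamini-Hochberg adjusted p under 0.05 and a 2-fold difference. A bound against MoDC used, on each array, the higher of the probe's own signal and the lowest signal well above background. Where nothing says that replicates came from separate animals, p-values then measure only the spread between these samples, which may be technical. The scripts were tested on simulated data. Figures were drawn with Python 3.11.15 and matplotlib 3.10.9.

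The 4 genes and the lists were chosen with earlier results of these data known. Named were these genes, the list genes called in at least 1 pair and, for each member, the 3 genes with a symbol and the 2 probes without one with the highest Pearson r, while CD80, CD40LG, IFNG and CR2 were named outside this rule. The CD28 probe sequence is not reported here. The alternatives were quantile normalization, normexp (offset 50, on mean or median spot signals), the series table, outliers kept, no filter, replicate number or slide as a block, and each replicated array left out. Within slides 1 to 3, same-numbered arrays deviated together from their subset means (r = 0.10 to 0.56, 18 of 18 over 0.1), while pairs with cDC2 did not (-0.15 to 0.09). The numbers therefore paired B, pDC, MP and MoDC arrays through their slide, read from the file headers, and not cDC2.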

Additional observations from a re-analysis of the deposited data

How the results depend on the processing

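The span of a gene is its highest minus its lowest subset mean, and it was 10.63 log2 units for CD3D, 7.45 for CD3E, 1.59 for CD28 and 7.72 for GNLY. The CD3D span ends in MoDC and the CD28 span in B, both at background on every array, so these spans measure the background in part and their stability says nothing about expression. With normexp the spans were 6.20, 6.18, 0.50 and 5.58. With normexp on spot medians for all arrays, chosen after seeing the data because 4 files lack mean signals, they were 6.16, 6.16, 0.50 and 5.56. In the authors' table they were 7.38, 6.57, 0.57 and 6.35. Normexp adds an offset before the log, which compresses low values, and the cause of the difference in the authors' table was not tested. Leaving out 1 array gave 10.39 to 10.79, 7.11 to 7.98, 1.37 to 2.09 and 6.67 to 8.98.

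Of the 8 list genes, 7 were called in at least 1 pair, against 65.1% of all genes tested, and 6 to 7 when 1 array was left out. Leaving out 1 array moved the calls per pair to 1 to 4 for B and pDC, 1 to 3 for B and MP, 3 to 6 for B and MoDC, 0 to 2 for B and cDC2, 4 to 5 for pDC and MP, 3 to 4 for pDC and MoDC, 1 to 3 for pDC and cDC2, 2 to 5 for MP and MoDC, 1 to 3 for MP and cDC2, and 3 to 4 for MoDC and cDC2. The pDC and cDC2 count was 1 without B replicate 2 or 4, pDC replicate 1 or 2, MP replicate 1, MoDC replicate 1 or 2, or any 1 cDC2 array. The B and cDC2 count was 1 without B replicate 4 or MP replicate 1 and 2 without MoDC replicate 3. Quantile normalization gave 1 call between B and cDC2 and 5 between MoDC and cDC2, and the authors' values 1 and 6, in that order. Either normexp gave 2 calls between B and pDC and 3 between MP and MoDC. The replicate block used the number in every subset, cDC2 included, whose numbers do not pair it with the others, so its counts of 1 between B and cDC2 and 1 between pDC and cDC2 are not read. Outside cDC2, both it and slide as a fixed block removed the calls of CD86 between B and MoDC and IL10 between MP and MoDC. The IL10 difference stayed at 1.90 log2 units, with limma adjusted p values of 0.0555 and 0.0506, and that of CD86 went from -1.11 to -0.999 with either block. The slide block, which holds the pairing and keeps cDC2 apart, gave 0 calls between cDC2 and pDC, MP or MoDC, and as a random block (correlation 0.23) 1 between pDC and cDC2. Keeping outlier spots or all dim probes left each count within 1.5 times. None of the 33 called differences reversed under 25 alternatives. The median of all genes moved by up to 0.28 log2 units with the scaling (MoDC and cDC2, authors' table).

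The mean over all probes of a gene was not run for the 4 genes, since each has 1 probe under its symbol. CD28 was at background on 15 of 17 arrays and CD3D on all MoDC arrays, and nominal differences there are not measured sizes. cDC1 was 1 array, without error.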
